A study of Mus musculus with 100 samples.

Results

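The p300 peaks described here were found in mouse osteoclast cultures and had no counterpart in the p300 peak list of mouse bone marrow-derived macrophages (BMDMs). Of 20143 p300 peaks in the osteoclast table, 4045 (20.1%) had no peak centre of the BMDM table within 1000 bp, and they are called osteoclast-only peaks below. The other 16098 peaks, called shared peaks, had a BMDM peak centre within that distance. The osteoclast table came from p300 ChIP-seq, in which DNA bound by p300 is precipitated with an antibody and sequenced, in bone marrow cells of wild-type C57BL/6 mice. Cells grown in M-CSF gave osteoclast precursors (day 0, 2 libraries), and further culture in M-CSF plus RANKL gave osteoclasts (day 4, 2 libraries). ERK1 ChIP-seq was made from the same 2 stages, again with 2 libraries each. The BMDM table held 67998 p300 peaks called in wild-type cells under vehicle (0 h) or after 6 h of KLA, a lipid A that activates TLR4, with 2 libraries each. The BMDM data on other factors were of wild-type cells too, except those of H3K27ac, which also held cells lacking the corepressor NCoR (NCoR knockout).

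A peak was counted as absent from BMDMs when it was missing from that peak list. No p300 tags of BMDM libraries were counted at these positions in the files used here, so a low BMDM signal at an osteoclast-only peak could not be told from none. The BMDM libraries held 15.2 to 19.5 M tags, more than the osteoclast p300 libraries (11.4 and 4.70 M at day 0, 10.2 and 8.82 M at day 4). The ERK1 libraries held 11.6 and 9.52 M tags at day 0 and 6.43 and 8.37 M at day 4. Both day 0 precursors and BMDMs are bone marrow cells of the macrophage lineage, so a missing BMDM peak and a low day 0 level are related measures. The share of all tags that fell in p300 peaks was 3.08% and 3.16% at day 0 and 9.61% and 9.53% at day 4. The scale therefore matters to every fold change, and each is given per library total and, where it bears on the call, after TMM normalisation, which moved the median log2 change of all peaks by -1.61.

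p300 is a histone acetyltransferase that is recruited by transcription factors and acetylates histones at active enhancers and promoters. RANKL acts through its receptor RANK and the adaptor TRAF6, and turns on NF-κB, AP-1 proteins and NFATc1, the factors under which macrophage precursors fuse and become bone-resorbing osteoclasts. ERK1 is a kinase of the MAPK cascade that lies downstream of TRAF6, as it does for TLR4.

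Sequences of 200 bp around the centre of 7 osteoclast-only peaks with day 4 changes described below are shown. They are part of a longer set of windows that was read. All are read from the RefSeq GRCm38.p6 genome (mm10), plus strand, 5′ to 3′. Capitals mark matches on either strand to 9 short consensus sites: NFAT (TGGAAA), AP-1 (TGANTCA), PU.1 (GAGGAAGT), C/EBP (TTGCNNAA), RUNX (TGTGGTT), TEAD (GGAATG), ETS (CCGGAAG), CRE (TGACGTCA) and the M-box (TCACGTG). The Fosl2 peak (chr5:32067269-32067468) lay in the last intron of Babam2, 69103 bp upstream of the Fosl2 start site. Its label below names Fosl2 as the nearest start site only, and the intron is not one of Fosl2. The Snx10 peak (chr6:51574155-51574354) and the Calcr peak (chr6:3752347-3752546) lay in introns of those genes. The Acp5 peak (chr9:22131180-22131379) was a promoter peak, the Fos peak (chr12:85499569-85499768) was intergenic, 25779 bp downstream of the Fos start site, the Gm4668 peak (chr9:116344889-116345088) was intergenic, and the Slc16a7 peak (chr10:125308761-125308960) spanned that gene's promoter.
Fosl2 intronic peak: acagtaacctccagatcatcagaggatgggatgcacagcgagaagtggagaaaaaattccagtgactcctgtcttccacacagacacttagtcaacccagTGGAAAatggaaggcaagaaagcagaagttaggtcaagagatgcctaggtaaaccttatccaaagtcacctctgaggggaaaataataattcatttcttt
Snx10 intronic peak: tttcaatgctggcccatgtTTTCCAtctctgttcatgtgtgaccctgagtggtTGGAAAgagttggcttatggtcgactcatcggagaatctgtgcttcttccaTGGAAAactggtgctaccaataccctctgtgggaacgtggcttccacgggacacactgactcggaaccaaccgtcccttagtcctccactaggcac
Calcr intronic peak: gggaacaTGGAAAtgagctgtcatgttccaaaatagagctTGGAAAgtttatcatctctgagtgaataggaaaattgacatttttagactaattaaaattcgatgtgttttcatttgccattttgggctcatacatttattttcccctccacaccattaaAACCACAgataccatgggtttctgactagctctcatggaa
Acp5 promoter peak: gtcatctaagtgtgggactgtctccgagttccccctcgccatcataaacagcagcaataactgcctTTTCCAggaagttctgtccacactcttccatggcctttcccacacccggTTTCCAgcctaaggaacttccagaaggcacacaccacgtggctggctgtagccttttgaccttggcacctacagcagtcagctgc
Fos downstream peak: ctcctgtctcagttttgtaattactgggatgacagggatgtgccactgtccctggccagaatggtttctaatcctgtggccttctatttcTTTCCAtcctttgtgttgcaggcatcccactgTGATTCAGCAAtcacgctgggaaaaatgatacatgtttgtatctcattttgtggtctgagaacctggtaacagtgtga
Gm4668 intergenic peak: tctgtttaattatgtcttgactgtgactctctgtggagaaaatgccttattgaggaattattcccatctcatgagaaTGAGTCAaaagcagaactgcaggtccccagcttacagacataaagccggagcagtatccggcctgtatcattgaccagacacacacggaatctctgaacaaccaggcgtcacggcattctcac
Slc16a7 promoter peak: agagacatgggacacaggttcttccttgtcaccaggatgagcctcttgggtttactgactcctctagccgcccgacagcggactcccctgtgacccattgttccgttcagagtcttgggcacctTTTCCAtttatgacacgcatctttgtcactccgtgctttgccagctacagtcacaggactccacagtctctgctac

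The Snx10 sequence held 3 NFAT matches, the Calcr and Acp5 sequences 2 each, and those of Fosl2, Fos and Slc16a7 1 each. A RUNX match also lay in the Calcr sequence. The AP-1 letters occurred in the Fos and Gm4668 sequences, and in the Fos sequence they overlapped a C/EBP match. Windows read in the same way at Mitf, BC005537 and Kif2c, not shown, held none of these matches, and that at Mmachc held an NFAT match. The windows shown are therefore not a fair sample of how often matches occur. These matches describe letters in a window and are not measured binding sites.

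By definition, no osteoclast-only peak had a BMDM p300 peak centre within 1000 bp. The median distance to the nearest one was 10303 bp, 2051 osteoclast-only peaks were more than 10 kb away and 293 more than 100 kb away. Of the shared peaks, 14881 of 16098 lay within 100 bp of a BMDM peak centre. The distances of both kinds follow in part from the definition, and those expected of random positions were not computed. Near the limit of 1000 bp lay 341 shared peaks, at 500 to 1000 bp, and 442 osteoclast-only peaks, at 1000 to 2000 bp. Just inside the definition stood a Zfp217 promoter peak at 1002 bp (20 and 0 tags at day 0, 26 and 43 at day 4), a Kif2c peak at 1004 bp (32 and 23, then 7 and 2) and a Gm13872 peak at 1007 bp (0 and 0, then 75 and 37). Just outside it stood peaks at Prkcb (996 bp; 6 and 0, then 26 and 23), Mir705 (993 bp; 6 and 0, then 25 and 23) and Wdr19 (990 bp; 30 and 19, then 31 and 34). Most of these peaks on either side of the limit had more tags at day 4 than at day 0.

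**Figure D1:**
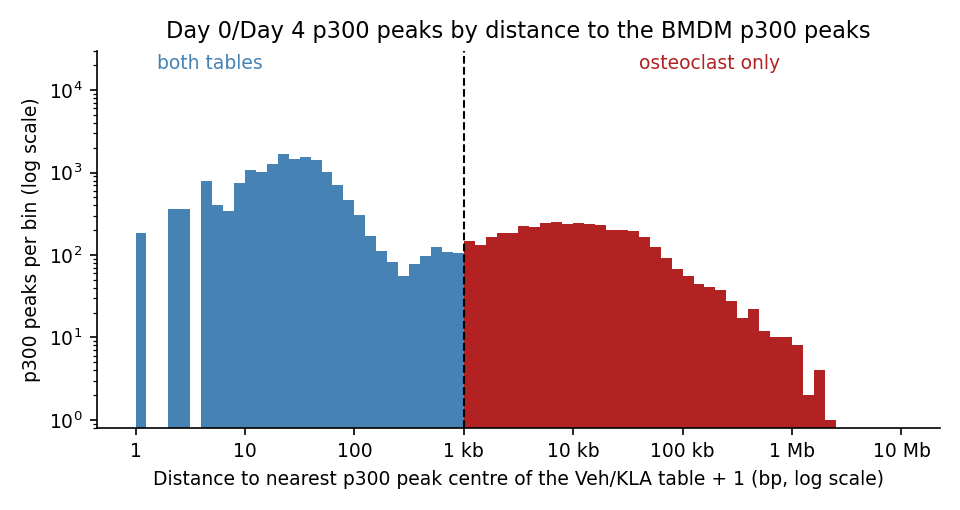
Number of p300 peaks of the day 0 and day 4 table per bin (log axis) by distance to the nearest BMDM p300 peak centre (bp plus 1, log axis), with the limit of 1000 bp as a dashed line, shared peaks (both tables) to its left in blue and osteoclast-only peaks in red; the 12 mitochondrial peaks have no distance. Most shared peaks lie within 100 bp, and the osteoclast-only peaks spread broadly around a median of 10303 bp.

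By position in genes, the osteoclast-only and the shared peaks were much alike. Of the osteoclast-only peaks, 3187 (78.8%) were distal, meaning over 2 kb from the nearest start site, against 12773 (79.3%) of the shared peaks. Introns held 1673 (41.4%) of them, intergenic sequence 1496 (37.0%) and annotated promoters 693 (17.1%, against 14.5% of shared peaks). LTR repeats held 275 (6.80%, against 6.67%). Their median distance from a start site was 19.5 kb against 15452.5 bp for the shared peaks, and 514 (12.7%) against 1474 (9.16%) were over 100 kb away. The median width was 238 bp in both. The differences of annotation were small beside those of p300, ERK1 and sequence that follow.

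The osteoclast-only peaks were assigned, by the nearest start site alone, to 2985 genes, of which 2312 had 1 such peak and 222 had at least 3. At 1504 of these genes (50.4%) the osteoclast table had no shared peak at all. Fosl2, which encodes an AP-1 protein of the Fos family, had most, 13 osteoclast-only peaks beside 11 shared ones, spread from 172883 bp upstream to 22331 bp downstream of its start site. The predicted genes Gm13985 and Gm4668 had 8 and 7, and H2afy3 had 8 beside 17 shared peaks. Next came 16 genes with 6 each, first among them Fez2, which had no shared peak.

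Osteoclast-only peaks carried less p300 than shared peaks at both stages, with the larger gap at day 0. Their median tag counts were 5 and 1 in the day 0 libraries and 32 and 27 in the day 4 libraries, against 15, 6, 40 and 34 at shared peaks. Per 10 M tags the osteoclast-only medians were 4.40 and 2.13 at day 0 and 31.3 and 30.6 at day 4, and the shared medians were 13.2 and 12.8, then 39.1 and 38.6. Both day 4 libraries exceeded both day 0 libraries at 3626 osteoclast-only peaks (89.6%, against 87.0% of the shared). No tag was found in either day 0 library at 614 of them (15.2%), against 262 shared peaks (1.63%).

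The rise of p300 from day 0 to day 4 was larger at the osteoclast-only peaks. Their median log2 change was 2.91 per library total and 1.31 after TMM normalisation, against 1.71 and 0.09 at shared peaks. The difference of the medians was 1.21 and 1.22, and over the 4 pairings of a day 0 with a day 4 library, which share libraries, it ranged from 1.05 to 1.55 (mean 1.30, SD 0.26). In edgeR's quasi-likelihood test at an adjusted p under 0.05 and over 2-fold, 62.2% of all peaks were called higher at day 4 and 0.248% lower per library total. Among osteoclast-only peaks 2968 (73.4%) were called higher and 18 (0.445%) lower, and among shared peaks 9563 (59.4%) and 32. After TMM normalisation 8.8% of all peaks were called higher and 3.83% lower. There, 924 osteoclast-only peaks (22.8%) and 849 shared peaks (5.27%) were called higher, while 154 (3.81%) and 617 (3.83%) were called lower. The 2 scalings thus gave very different numbers of calls. TMM moves all peaks by nearly the same amount, so the difference of the medians is nearly fixed by construction. That difference was not tested, because it is 1 division of the peaks of the same 4 libraries. Leaving out either day 4 library reduced the osteoclast-only calls from 2986 in both directions to 602 (without replicate 1) or 680 (without replicate 2).

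The gap in medians was found at distal peaks. Distal osteoclast-only peaks had a median log2 change of 3.42 per library total and 1.82 after TMM, against 1.88 and 0.26 at distal shared peaks, and 886 (27.8%) against 803 (6.29%) were called higher after TMM. At promoters (within 2 kb of a start site) the medians did not show it and were 0.88 and -0.72 for the 846 osteoclast-only peaks and 1.02 and -0.59 for the shared peaks. Of the promoter osteoclast-only peaks, 38 (4.49%) were called higher and 98 (11.6%) lower after TMM, and of the shared ones 46 (1.38%) and 370 (11.1%).

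**Figure D2:**
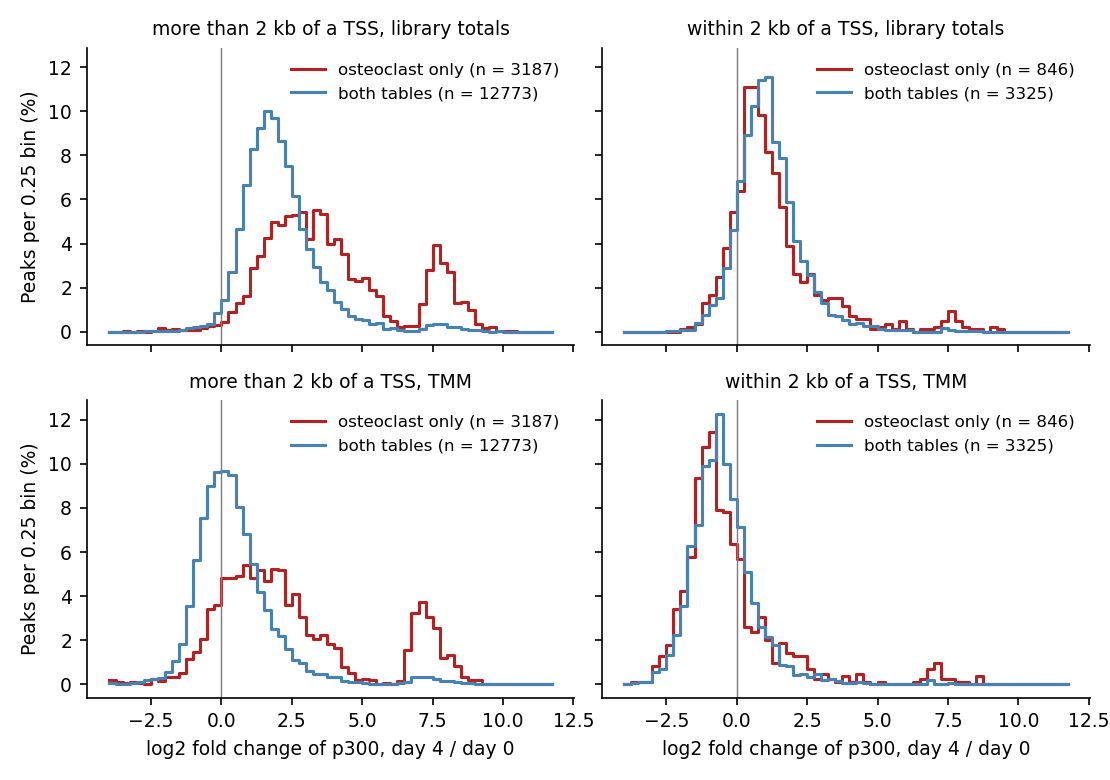
Percentage of peaks per bin of the fitted log2 change of p300, day 4 against day 0, for osteoclast-only (red) and shared (both tables, blue) peaks, with distal peaks on the left, promoter peaks on the right, scaling by library totals above and TMM below. Distal osteoclast-only peaks are shifted to the right (median 3.42 against 1.88 above, 1.82 against 0.26 below), promoter peaks are not, and the small hump at the far right holds peaks with no day 0 tags, whose fitted values depend on the prior count.

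The peaks had been called in these same libraries, and most in day 4 cells alone. Of the osteoclast-only peaks, 3831 (94.7%) came from the reproducible day 4 set only, 117 from day 0 only and 97 from both; 86.9% of shared peaks were from day 4 only. Counts of peaks higher at day 4 therefore carry that choice for both kinds. Within the day 4 set only, the medians were 3.06 and 1.45 (TMM) for osteoclast-only peaks and 1.85 and 0.24 for shared peaks. The 214 osteoclast-only peaks of the day 0 set had a median of -0.27 per library total and -1.89 after TMM, and 130 of them (60.7%) were called lower after TMM, against 25.2% of 2115 shared peaks of that set.

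A few osteoclast-only peaks stood apart from the rest. There were 12 on the mitochondrial genome, where the BMDM table listed none, and 6 in the ribosomal RNA gene Rn45s. They held the highest tag counts, such as 1868 and 1489 at day 0 and 1380 and 1458 at day 4 at chrM:36-385. None of these 18 was called per library total and all 18 were called lower after TMM. Without them the remaining 4027 peaks had the same 2986 calls and a median of 2.92. Outside them, chosen after the values were seen, the highest level was at the 3′ end of Ctgf, which encodes a matricellular growth factor and is a familiar TEAD target, with 174 and 97 tags at day 0 and 124 and 155 at day 4. Its log2 change of -0.26 ± 0.32 (SE) did not pass per library total (edgeR, adjusted p 0.463) but was called lower after TMM.

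The 8 osteoclast-only peaks with the lowest p-values for a rise were at Fosl2, Gm4668, Mir378a, Slc16a7, Prep, Cbx7, Htr1b and Tfrc. The Fosl2 peak had 0 tags in both day 0 libraries and 232 and 152 at day 4. This was at least 108-fold higher per library total, taking 3 counts over both day 0 libraries as the floor (edgeR, adjusted p 4.58e-05). That bound leaves out the counting error of day 4, and the exact 95% counting interval began at 87.4-fold. The same limit applies to the other folds given as at least. The 2 stages did not overlap. At Gm4668 the counts were 0 and 0, then 167 and 125 (at least 82.2-fold), and at Prep, an endopeptidase gene, 0 and 0, then 142 and 124 (at least 74.8-fold). At Cbx7, a Polycomb protein gene, they were 0 and 0, then 116 and 112 (at least 64.2-fold). All 3 peaks thus went from no tag at day 0 to over 100 in each day 4 library. The Htr1b peak, assigned to a serotonin receptor gene 89267 bp away, had 0 and 0, then 119 and 101 (at least 61.9-fold). The Slc16a7 peak, at the promoter of a monocarboxylate transporter gene, had 2 and 0, then 151 and 126, a ratio of 117 (exact 95% counting interval 32.1 to 970). The Mir378a peak had 1 and 0, then 140 and 110 (ratio 211, 37.5 to 8368). The wide intervals come with the 1 to 3 tags of day 0. Tfrc, the transferrin receptor gene for iron uptake, had 3 and 0, then 137 and 111 (ratio 69.8, 23.6 to 341), 42012 bp from the start site, and a second peak 40218 bp away had 24 and 7, then 185 and 130 (log2 change 3.12 ± 0.39). All 8 peaks with the lowest p-values were also called higher after TMM.

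The 8 osteoclast-only peaks with the lowest p-values for a fall had fewer tags. BC005537 had 27 and 15 tags at day 0 and 4 and 1 at day 4 (log2 change -3.29 ± 0.73, adjusted p 0.00268 in edgeR). Kif2c, a mitotic kinesin gene, had 32 and 23, then 7 and 2 (-2.96 ± 0.75). A peak at the 3′ end of Mmachc, a cobalamin-handling gene, had 78 and 47, then 29 and 22 (-1.63 ± 0.42). In each of these the day 0 and day 4 counts did not overlap. The Cox6a1 promoter had 49 and 43, then 15 and 16 (-1.98 ± 0.54). Near Cd36, a scavenger receptor gene, the counts were 37 and 13, then 3 and 7 (-2.49 ± 0.69). At S100a8, a neutrophil and monocyte alarmin gene, they were 37 and 10, then 6 and 5 (-2.25 ± 0.64). Mmp12, the macrophage metalloelastase gene, had 38 and 8, then 5 and 6 (-2.19 ± 0.66), and AV051173 had 43 and 29, then 20 and 6 (-1.85 ± 0.62). All 8 were called lower under both scalings. At Mmp12 and S100a8 the second day 0 library, the shallowest with 4.70 M tags, came close to the day 4 counts before scaling.

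Osteoclast genes held osteoclast-only peaks with large rises of p300, while the share of their peaks that was osteoclast-only was near that of all peaks. Among 26 genes of fusion and bone resorption, 15 were the nearest gene of 26 osteoclast-only peaks, beside 121 shared ones (17.7% osteoclast-only, against 20.1% of all peaks). Per library total, 25 of the 26 were called higher and 0 lower, with log2 changes from 1.24 to 9.69 and a median of 3.70 (2.10 after TMM), against 2.91 (1.31) for all osteoclast-only peaks, 2.29 (0.68) for the shared peaks of these genes and 1.84 (0.22) for all 20143 peaks. After TMM, 6 were called higher and 0 lower. Of all osteoclast-only peaks, 73.4% were called higher per library total and 22.8% after TMM, so the 6 of 26 are close to what osteoclast-only peaks showed in general.

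Snx10, a sorting nexin needed for resorption, had 0 and 3 tags at day 0 and 172 and 134 at day 4 (ratio 86.1, 29.2 to 420). Calcr, the calcitonin receptor of mature osteoclasts, had 0 and 0, then 145 and 82 (at least 63.9-fold). Acp5, the tartrate-resistant acid phosphatase by which osteoclasts are stained, had 11 and 4, then 93 and 73 (3.21 ± 0.49, edgeR adjusted p 4.02e-04). All 3 lay clear of their day 0 counts, and the Acp5 change fell short after TMM (1.60, adjusted p 0.0601). Mmp9, a matrix metalloproteinase gene, had 2 and 0, then 100 and 77 (ratio 74.7, 20.4 to 622). Dcstamp, which encodes a fusion receptor, had 1 and 1, then 55 and 42 (ratio 40.9, 11.0 to 343). Snx10, Calcr, Mmp9, Dcstamp and Gsn (2 and 0, then 40 and 34), the gene of the actin-severing protein gelsolin, kept their call after TMM.

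At the other resorption genes the highest osteoclast-only peak was not called after TMM. Cd9, a tetraspanin, had 17 and 0 tags, then 97 and 52. Plekhm1, which acts in lysosome trafficking, had 0 and 8, then 71 and 64, and Siglec15, a fusion-related lectin, had 2 and 7, then 50 and 59. Each of these 3 peaks was called higher per library total but not after TMM, where the log2 changes were 1.37, 1.97 and 1.56. A second Siglec15 peak, with 0 and 0, then 72 and 34 tags, was called under both scalings. The integrin subunit genes Itgb3 (14 and 4, then 50 and 41) and Itgav (3 and 0, then 45 and 32) encode the vitronectin receptor with which osteoclasts hold to bone. Slc4a2, an anion exchanger, had 0 and 3, then 46 and 32, and Oscar, a costimulatory receptor, had 3 and 0, then 50 and 24. Ctsk, the collagen-degrading cathepsin K, had 10 and 3, then 40 and 21, and Src, a kinase of the ruffled border, had 8 and 1, then 26 and 12. None of these 6 was called after TMM. The log2 change was then 2.79 at Itgav, 2.72 at Oscar, 2.67 at Slc4a2, 0.50 at Itgb3, 0.36 at Ctsk and 0.21 at Src. Other osteoclast-only peaks of Itgb3 had 4 and 0, then 49 and 47 tags (2.74 after TMM), and 1 and 3, then 23 and 28 (1.73). Neither was called after TMM.

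Among 36 genes of RANK signalling and osteoclast regulation, 13 had 46 osteoclast-only peaks beside 172 shared ones (21.1% osteoclast-only). Of the 46, 43 were called higher and 0 lower per library total, and 19 higher and 0 lower after TMM. The shares over all osteoclast-only peaks were 73.4% and 22.8% called higher. Their median log2 change was 4.22 (2.64 after TMM), against 2.91 (1.31) for all osteoclast-only peaks and 1.72 (0.09) at the shared peaks of the same list. Fosl2 supplied 13 of the 46, all called higher per library total and 5 after TMM, with a median of 3.18 (1.62).

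The receptor gene Tnfrsf11a, which encodes RANK, had 0 and 3 tags at day 0 and 75 and 35 at day 4. Its adaptor gene Traf6 had 0 and 0, then 21 and 21 (at least 11.8-fold). The Traf6 peak kept its call after TMM, while the Tnfrsf11a peak did not (log2 change 3.15, edgeR adjusted p 0.0639). A second Tnfrsf11a peak, with 1 and 0, then 40 and 21 tags, was called after TMM as well. Of the transcription factors, Nfatc1, which directs osteoclast differentiation, had 1 and 3, then 109 and 63 (5.02 ± 0.70, edgeR adjusted p 2.63e-04). Fos, the AP-1 subunit without which osteoclasts do not form, had 0 and 0, then 99 and 82 (at least 50.9-fold), and Mitf, a factor acting on resorption genes, had 3 and 4, then 100 and 72 (4.26 ± 0.60). These 3 were called higher under both scalings and their stages did not overlap. Prdm1, a repressor of macrophage genes in osteoclasts, had 2 and 0, then 111 and 62 (ratio 73.0, 19.9 to 608). Nfkb1 had 0 and 0, then 41 and 30 (at least 20.0-fold), and Myc had 0 and 0, then 24 and 20 (at least 12.4-fold). These 3 kept the call after TMM. The highest peaks at Batf (2 and 3, then 39 and 35) and Jdp2 (0 and 6, then 52 and 29), both AP-1 related, and at Rbpj (14 and 0, then 26 and 32), the Notch effector, were called higher per library total only, but other osteoclast-only peaks of Batf (0 and 0, then 34 and 21) and Jdp2 (0 and 0, then 31 and 26, and 0 and 0, then 19 and 24) kept the call after TMM. The Jund peak (32 and 33, then 61 and 20) was not called, with a log2 change of -0.16 (edgeR, adjusted p 0.80).

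**Figure D3:**
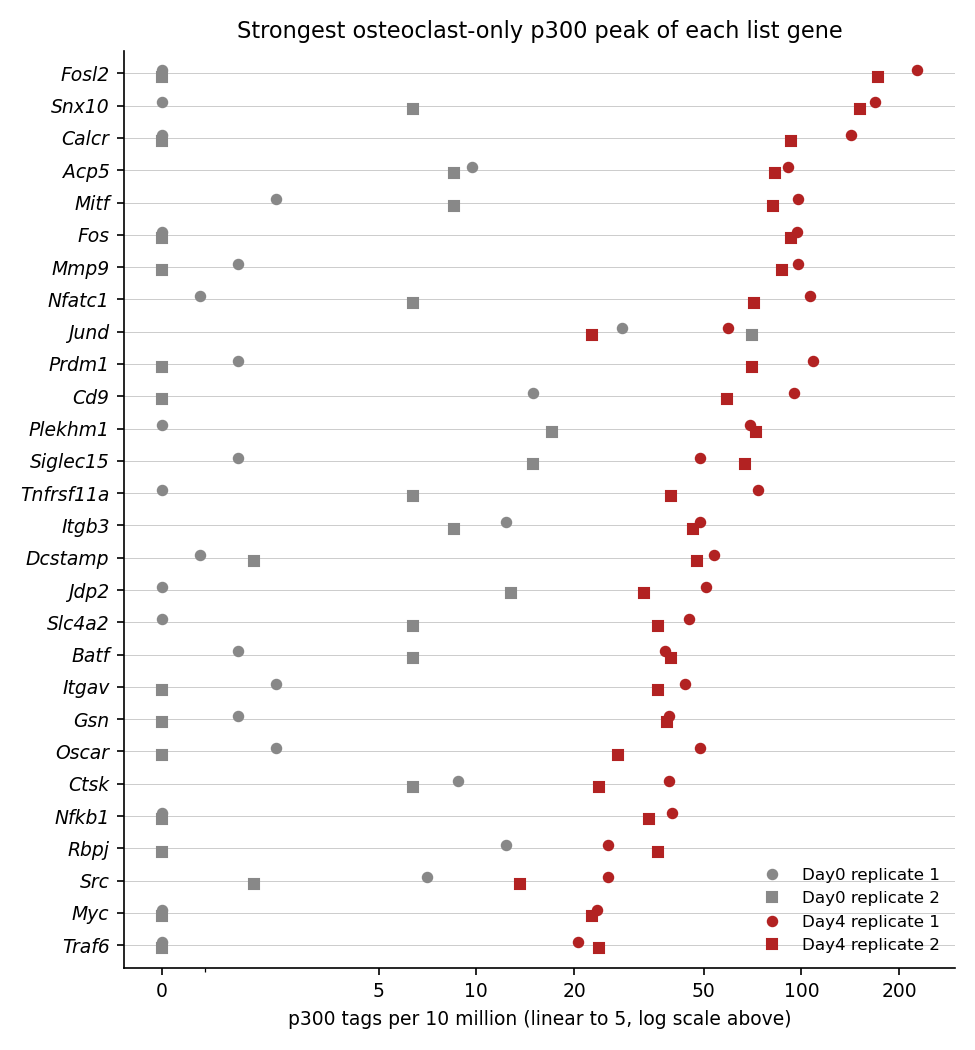
p300 tags per 10 M at the highest osteoclast-only peak of each of 28 osteoclast genes, 1 point per library, with day 0 and day 4 in different colours (x axis linear to 5 and log above) and the replicates in different symbols. Except at Jund, where the stages overlap, the day 4 points lie to the right of the day 0 points.

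The lists of other cells and responses differed in their share of osteoclast-only peaks. The definition itself leaves out p300 peaks listed in vehicle and KLA-treated BMDMs. Low shares at TLR4 targets and macrophage markers are therefore not independent of it. Of 24 TLR4 inflammatory targets, 1 had an osteoclast-only peak, Il12b (4 and 0 tags, then 27 and 21, log2 change 3.29), while 47 shared peaks lay at these genes (2.08% osteoclast-only). Macrophage marker genes had 0 osteoclast-only and 38 shared peaks, B cell markers 0 and 5, erythroid markers 0 and 3, mast cell markers 0 and 4, and T and NK cell markers 0 and 0. Neutrophil markers had 4 (2 at Cxcr2, and S100a8 and S100a9) and 3, so 57.1% of their peaks were osteoclast-only, against 20.1% of all peaks. A dendritic cell marker, Zbtb46, had 1 beside 3 shared peaks at that list (25%). The S100a9 peak rose (0 and 1, then 33 and 45) where S100a8 fell. Markers of osteoblasts and stromal cells had 3 osteoclast-only peaks, 2 at Runx2 and 1 at Col1a2, beside 8 shared ones (27.3%), all 3 called higher per library total and 1 after TMM. p300 tags do not give the amount of any cell type, and the part of other cells in these changes was not tested.

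Few osteoclast-only peaks had a listed ERK1 peak nearby. An ERK1 peak centre of the same day 0 and day 4 cultures lay within 500 bp of 258 of them (6.38%), against 8274 shared peaks (51.4%). At distal peaks the shares were 2.20% and 51.7%, and at promoters 22.2% and 50.4%. The p300 level at day 4 moved with ERK1 at shared peaks, whose share rose from 31.5% in the lowest of 5 equal classes of that level through 40.0%, 47.1% and 57.3% to 73.3% in the highest. At osteoclast-only peaks, of which 1281 fell in the lowest class and 319 in the highest, the shares in the same classes were 7.10%, 7.04%, 5.71%, 5.39% and 4.70%. The gap was thus present at every p300 level. Among peaks of the day 4 set only it was 5.33% against 47.9%, and among peaks of the day 0 set 25.2% against 74.7%. It was not tested, since each table is 1 peak list for 4 libraries. ERK1 tags were not counted at p300 peaks without a listed ERK1 peak, so low ERK1 there could not be told from none. Below, with or without ERK1 means with or without a listed ERK1 peak centre within 500 bp.

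Osteoclast-only peaks with ERK1 differed from those without. They were mostly not distal (27.1% distal, against 82.3%), and their median log2 change of p300 was 0.81 (-0.80 after TMM), with 58 of 258 called higher. Those without ERK1 had a median of 3.08 (1.47), with 2910 of 3787 (76.8%) called higher. Shared peaks went the same way, with medians of 1.52 (-0.10) with ERK1 and 1.97 (0.36) without. Of these, 79.7% with ERK1 and 78.9% without were distal. Promoter osteoclast-only peaks, with or without ERK1, had a median of 0.88 (-0.72). Distal and promoter peaks were not compared separately by ERK1. Among osteoclast-only peaks, a difference by ERK1 therefore cannot be told apart from one by position. The 2 osteoclast lists held 4 osteoclast-only peaks with ERK1 among 72, 1 of resorption genes (53 of 121 shared peaks) and 3 of regulators (99 of 172). The resorption gene was Acp5, whose ERK1 peak, 65 bp from its p300 peak, had 14 and 6 tags at day 0 and 17 and 24 at day 4 (log2 change 1.56, edgeR adjusted p 0.144).

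Few ERK1 peaks beside osteoclast-only p300 peaks were called. In a simulation, 200 peaks drawn from all 14957 ERK1 peaks were changed by 3-fold, and 13% of them were recovered. All other simulated peaks were unchanged, whereas 89.0% of ERK1 peaks in the data had a positive change per library total. The 13% is thus not the power for the peaks near osteoclast-only p300 peaks, which was not measured. Across all ERK1 peaks, 2.33% were called higher at day 4 and 0.0267% lower per library total, and after TMM 0.0% were called higher and 0.0% lower. Of 259 ERK1 peaks near osteoclast-only p300 peaks, 8 (3.09%) were called higher and 0 lower per library total, while 70 had an unadjusted p under 0.05. After TMM and in DESeq2, 0 were called. Their median tags were 19 and 16 at day 0 and 22 and 19 at day 4. Their median log2 change was 0.91 per library total and -0.06 after TMM, against 0.95 and -0.02 near shared peaks and 1.00 and 0.04 at all ERK1 peaks, so the sign depends on the scaling. Per library total the change was positive at 211 (81.5%) of them.

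The 8 ERK1 calls were at Nenf, Mmp12 (2 peaks), Otos, Mmachc, Vim, Pxmp4 and Galnt9. The Nenf peak had 7 and 2 ERK1 tags at day 0 and 50 and 29 at day 4 (log2 change 3.70 ± 0.77, edgeR adjusted p 0.0290). The first Mmp12 peak had 1 and 3, then 34 and 17 (4.14), and the Otos peak 0 and 5, then 45 and 16 (4.09). Stages did not overlap at any of these. The Mmachc peak had 10 and 6, then 44 and 29 (2.75), and the peak near Vim, the gene of the filament protein vimentin, 12 and 3, then 39 and 31 (2.79). Leaving out either day 4 ERK1 library left 0 calls. Per the labels, the second of these libraries has another library date than the other 3 ERK1 libraries, and the part of that difference was not tested.

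The p300 and ERK1 changes did not always share a sign. At Mmp12 p300 fell (38 and 8, then 5 and 6 tags) where ERK1 rose, and at Mmachc p300 fell (78 and 47, then 29 and 22) where ERK1 rose. At Otos p300 rose with ERK1 (15 and 1, then 44 and 53; log2 change 2.48), as it did at Vim (34 and 11, then 55 and 64; 1.21). Neither p300 rise passed after TMM, where the Vim change was -0.41. At Nenf p300 had 10 and 5, then 26 and 14 tags, a change of 1.13 that did not pass (edgeR adjusted p 0.120). Both factors were measured in different libraries, and the ERK1 calls rest on the scaling by library totals.

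The low overlap extended to the other factors mapped in BMDMs. A peak centre within 500 bp was found for NCoR, a corepressor, at 16.3% of osteoclast-only and 88.0% of shared peaks, for its partner HDAC3 at 13.6% and 86.3%, and for the coactivator PGC1β at 10.8% and 71.8%. For the NF-κB subunit p65 the shares were 13.1% and 83.9%, for the AP-1 protein Fosl2 8.06% and 75.4%, for PU.1, the lineage factor of macrophages, 16.5% and 75.7%, and for ERK1 in BMDMs 9.12% and 66.6%. None of these 7 BMDM factors had a peak at 2739 osteoclast-only peaks (67.7%), against 623 shared peaks (3.87%), and at least 4 of them did at 392 (9.69%), against 83.5%. These tables and the BMDM p300 table share cells and culture, so low shares of other factors are not independent of the missing p300 peak.

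The positions of the BMDM H3K27ac table, which held wild-type and NCoR-knockout cells under vehicle or KLA, were taken as open regions. They appear to be such, as the paper describes counting H3K27ac at ATAC-seq peaks (open chromatin) or at factor peaks, but this was not checked. They lay within 500 bp of 18.4% of osteoclast-only and 52.1% of shared peaks. The shares were 3.20% against 45.7% at distal peaks but 75.9% against 76.7% at promoters. Distal osteoclast-only peaks mostly had no region in this BMDM list, which also left out many distal shared peaks. Promoter osteoclast-only peaks had a listed region about as often as shared promoters. Where distal osteoclast-only peaks did have a region, its median H3K27ac in wild-type cells was lower than near distal shared peaks. It was 5.04 and 4.58 tags per 10 M under vehicle and 3.46 and 4.14 after KLA, against 12.6 and 12.7, then 11.3 and 12.4. PU.1 peaks near distal osteoclast-only peaks had medians of 60.0 and 57.9 under vehicle and 34.0 and 34.1 after KLA, tags per 10 M, against 133 and 135, then 109 and 109 near distal shared peaks.

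**Figure D4:**
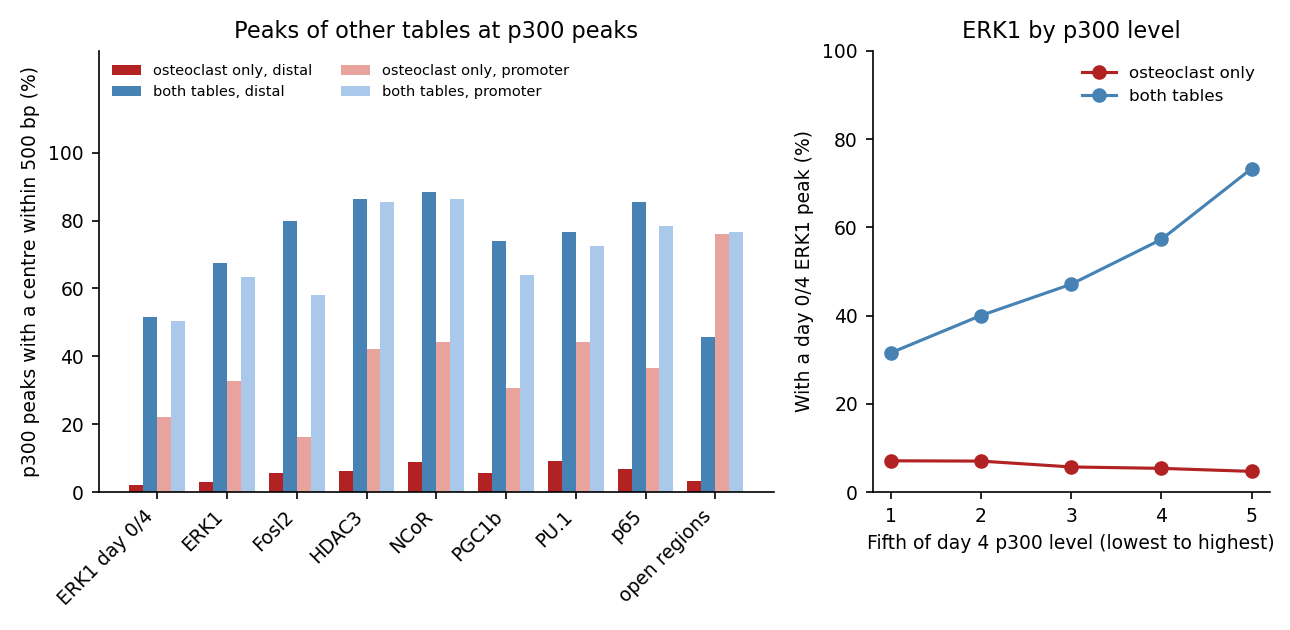
Left, bars of the percentage of distal and promoter p300 peaks, osteoclast-only or shared (both tables), with a peak centre of each other table within 500 bp, and right, the percentage with a day 0 or day 4 ERK1 peak by class of day 4 p300 level. Osteoclast-only bars are below the shared bars for each factor, the open regions at promoters are near equal (75.9% against 76.7%), and the ERK1 share rises with p300 from 31.5% to 73.3% at shared but not at osteoclast-only peaks (7.10% to 4.70%).

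Distal osteoclast-only peaks differed in sequence from distal shared peaks. Within 200 bp of the centre, the NFAT letters TGGAAA occurred on either strand in 39.2% of distal osteoclast-only and 23.7% of distal shared peaks, with 24.1% among all peaks. The TEAD letters GGAATG occurred in 20.7% and 11.0% (all peaks 11.9%). The AP-1 site TGANTCA was frequent in both, at 47.1% and 41.2% (all peaks 36.7%). Sites of macrophage lineage factors went the other way, with GAGGAAGT for PU.1 in 4.52% and 11.7% (all peaks 9.45%) and TTGCNNAA for C/EBP in 7.50% and 15.2% (all peaks 12.5%).

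The median GC content of these windows was 46.5% in distal osteoclast-only and 47.5% in distal shared peaks, and the differences for NFAT, TEAD, PU.1 and C/EBP had the same direction in each of 4 classes of GC content. For NFAT the shares were 45.8% against 28.0% under 45% GC and 25.7% against 15.5% at 55% GC or more. Little difference was found for RUNX (TGTGGTT, 10.3% and 11.3%), the MAF core letters (TGCTGA, 21.1% and 23.6%), NF-κB (7.50% and 8.39%), an IRF pair of 2 GAAA copies 2 bases apart (2.92% and 3.23%), the M-box (1.92% and 2.45%), CRE (0.19% and 0.42%), ETS (1.29% and 1.66%) and CTCF (0.31% and 0.34%). Among all peaks these 8 occurred in 9.76%, 20.9%, 8.32%, 2.89%, 3.32%, 0.88%, 4.31% and 0.39%. Among distal peaks called higher after TMM, NFAT letters were in 49.1% of osteoclast-only and 39.0% of shared peaks, AP-1 in 49.2% and 58.3%, and NF-κB in 10.3% and 18.3%. TEAD letters were in 13.7% and 11.1% of them, a smaller difference than over all distal peaks, PU.1 in 3.72% and 8.22%, and C/EBP in 4.29% and 6.72%. The letters can overlap one another and each is short enough to occur by composition alone. Promoter peaks of both kinds held the ETS letters CCGGAAG in 16.8% and 14.3% and AP-1 in 10.0% and 16.1%.

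**Figure D5:**
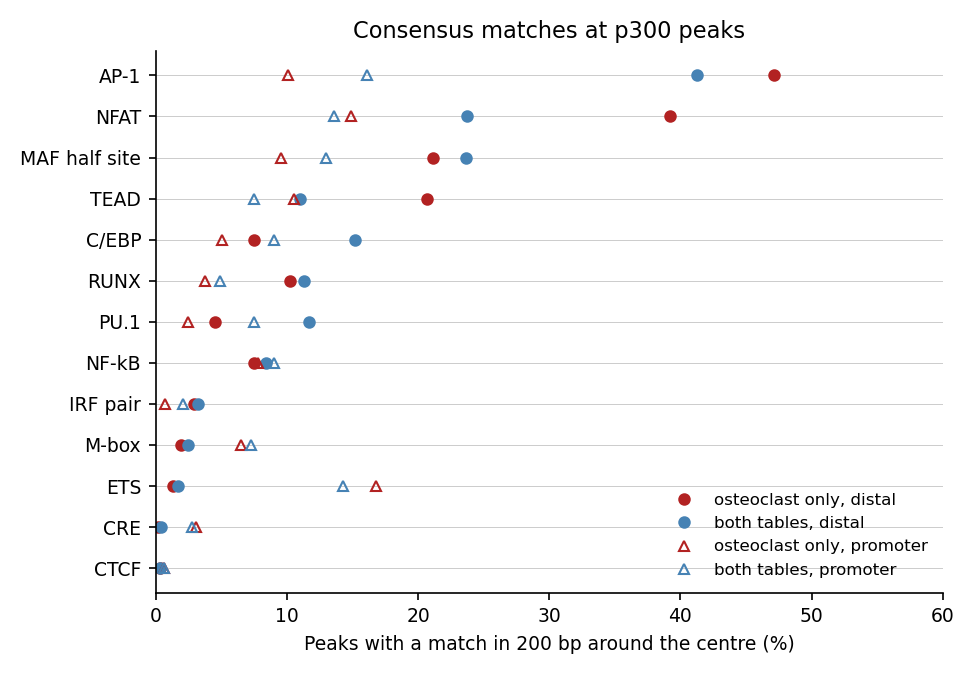
Percentage of p300 peaks whose central 200 bp hold each consensus on either strand, for osteoclast-only (red) and shared (both tables, blue) peaks at distal sites (filled circles) and promoters (open triangles). NFAT (39.2% against 23.7%) and TEAD (20.7% against 11.0%) are more frequent, and PU.1 (4.52% against 11.7%) and C/EBP (7.50% against 15.2%) less frequent, in distal osteoclast-only peaks.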

How the data were processed

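p300 and ERK1 ChIP-seq of wild-type osteoclast precursors (day 0) and osteoclasts (day 4), 2 biological replicates each, were analysed with peak tables of BMDMs. The values deposited by the authors are raw tag counts per merged peak. Its methods describe single-end reads mapped to mm10, a limit of 3 tags per position, HOMER peaks kept where IDR found them reproducible between replicates, merging of the peaks of both conditions, and gene assignment by HOMER. The submitters' processing notes name Bowtie2, HOMER and DESeq2, and their versions are not given in the sources used here. For ERK1 at day 4, the labels of replicate 2 describe it as replicate 3, with another library date.

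Distances were taken between peak centres (1000 bp to define osteoclast-only peaks, 500 bp to other factors). Peaks with at least 4 tags in 1 library entered edgeR 4.0.16 (R 4.3.3; quasi-likelihood F-test, two-sided, library sizes from the deposited totals), and all passed. Calls needed a Benjamini-Hochberg adjusted p under 0.05 over the whole table and over 2-fold. Values after ± are standard errors of log2 changes. Where day 0 had no tags, the fold was bounded with 3 counts, without the counting error of day 4. With 1 to 3 tags at day 0 the ratio has an exact 95% interval that covers counting error only. The fits were tested on simulated data, where 48% (p300, 20143 peaks) and 13% (ERK1, 14957 peaks) of 200 peaks changed by 3-fold were recovered. Sequences were read from GRCm38.p6 with pysam 0.24.0. Where the tables allowed the check, 94.7% of start-site distances came within 10 bp of that annotation.

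The members, gene lists and motifs were chosen with earlier results of these data known. Named were, for each gene of the osteoclast lists, its highest osteoclast-only peak; the 8 peaks with the lowest p in each direction, 1 per gene; the 5 highest peaks; the 5 genes with most peaks; and the 5 nearby ERK1 peaks with the lowest p in each direction. Alternatives were TMM, DESeq2 (1.42.0) size factors and Wald test, other filters and distances, a replicate block, and leaving out each library. p-values over 2 libraries a stage measure the spread between those only.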

Additional observations from a re-analysis of the deposited data

How the results depend on the processing

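The number of osteoclast-only p300 peaks called (2986) became 1078 with TMM, 1147 with DESeq2 size factors and 344 in DESeq2's Wald test, and ranged from 602 to 3361 when 1 library was left out, the lowest being without the first day 4 library and 680 without the second. For all p300 peaks (12581 calls) the counts were 2544, 2693 and 787, and 3012 to 15101 when 1 library was left out. The median log2 change of osteoclast-only peaks (2.91) became 1.31, 1.41 and 1.45 under the same 3 alternatives and ranged from 2.86 to 3.65 over the libraries left out. The cause of the gap between scalings was not tested.

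ERK1 calls near osteoclast-only peaks (8) numbered 0 with TMM, DESeq2 size factors or the Wald test, 5 with ERK1 centres within 100 bp, and 0 to 30 when 1 library was left out (0 without either day 4 library, 19 and 30 without the first and second day 0 library). The ERK1 median log2 change of 0.91 turned to -0.065, -0.064 and -0.065. The share of osteoclast-only peaks with ERK1 (6.38%) was 4.89% at 100 bp.

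With the replicate number as a block, 1840 osteoclast-only p300 peaks and 9 ERK1 peaks were called. The replicate numbers showed no sign of pairing the libraries (correlation of deviations over peaks -0.003 for p300 and -0.007 for ERK1). Counting noise at low tag counts also lowers such a correlation, so this check cannot exclude pairing. A limit of 500 bp or 2000 bp gave 4386 or 3603 osteoclast-only peaks with medians of 2.87 and 2.97. Leaving out mitochondrial and Rn45s peaks, chosen after seeing the data, left 2986 and 8 calls.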

Other observations

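Osteoclast-only peaks of the day 0 set were mostly promoters: without the mitochondrial and Rn45s peaks, 151 of 199 lay within 2 kb of a start site and 48 were distal. All 5 osteoclast-only peaks assigned to Cdk5rap2 were called higher under both scalings. Of the 5 ERK1 peaks with the lowest p-values for a fall, none was called: the lowest, near G530011O06Rik, had 24 and 17 tags at day 0 and 5 and 1 at day 4 (log2 change -2.16, edgeR adjusted p 0.127), and the others were at Mob1a, Arsa, Ino80e and Bhlha9.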
